A study of Mus musculus with 14 samples.

Results

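The genes of endoplasmic reticulum (ER) protein folding, the unfolded protein response and ER-associated degradation (ERAD) were examined in Y1 cells, a mouse adrenocortical tumour line, given serum with or without fibroblast growth factor 2 (FGF-2). The set holds 31 listed genes of the 24465 in the count files, chosen by name: 10 luminal chaperones and co-chaperones, 2 lectin chaperones, 6 disulfide isomerases and oxidases, 8 ERAD factors, and 5 genes of the stress sensors, Xbp1 and Wfs1. All cells went 48 h without serum before they received 10% fetal bovine serum for 5 h, and the compared group also received 10 ng/ml FGF-2. For each group 3 libraries of polyadenylated RNA were sequenced. Histone H3 acetylated at lysine 27 (H3K27ac), which marks promoters and enhancers in use, was profiled in 2 libraries per group, each with an input. No drug or other agent that stresses the ER was part of the design, both groups received serum, and unstimulated cells were not analysed here. The labels do not say that replicates came from separate cultures, so p-values measure the spread between these libraries, which may be technical.

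As background, the ER lumen is where secreted and membrane proteins fold, with the help of the Hsp70 chaperone BiP (Hspa5) and its partners, the lectins calnexin and calreticulin, and enzymes that form disulfide bonds. Misfolded clients are returned to the cytosol and degraded through ERAD. When unfolded proteins build up, the membrane sensors Ern1 (IRE1), Atf6 and Eif2ak3 (PERK) raise the transcription of chaperones and ERAD factors and lower translation. Ern1 acts by splicing the Xbp1 mRNA, Atf6 by release of its own transcription factor domain, and Eif2ak3 by phosphorylating the initiation factor eIF2alpha, which favours translation of Atf4. Gene counts do not report splicing, cleavage or phosphorylation, so none of these activities was measured.

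The DNA sequence through which Atf6 and Xbp1 are known to act on chaperone genes is the ER stress response element (ERSE), CCAAT and CCACG held 9 bases apart, and a shorter form (ERSE-II) places ATTGG and CCACG 1 base apart. These elements were first defined on promoters of chaperone genes, some of which are in the set, so their presence here is a description of the set. RefSeq start sites (GRCm38, the assembly of the authors' mm10 build) gave a window of 300 bases, 250 before and 50 after the start, for 27 of the 31 genes, with 28 windows in all since Derl2 has 2 starts. Genes were counted as holding an element when any of their windows did. An ERSE on either strand stood in 9 of these 27 genes (33.3%), against 37 of all 27025 genes with a window (0.137%). An ERSE-II stood in 2 (7.41%, against 0.0444% of all), and 16 of the 27 hold no exact match to either. The sites are shown so that the genes that hold an element can be set beside their RNA values. They are written in the direction of the element, with the 2 fixed blocks in capitals:
Hspa5: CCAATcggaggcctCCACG
Hsp90b1, site farther from the start: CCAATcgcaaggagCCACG
Hsp90b1, site nearer the start: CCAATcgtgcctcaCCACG
Calr: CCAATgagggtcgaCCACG
Canx: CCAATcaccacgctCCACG
Creld2: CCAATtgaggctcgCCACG
Dnajc3: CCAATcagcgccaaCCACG
Pdia6: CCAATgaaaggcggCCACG
Syvn1: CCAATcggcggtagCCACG
Derl3: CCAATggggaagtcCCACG
Dnajb11: ATTGGcCCACG
Herpud1: ATTGGgCCACG
The ERSE sites began 44 to 212 bases before the start, 6 of the 10 in the direction of the gene. The site of Hspa5 lies at chr2:34772025-34772043, those of Hsp90b1 at chr10:86705638-86705656 and chr10:86705533-86705551, that of Calr at chr8:84847075-84847093, that of Canx at chr11:50325800-50325818, that of Creld2 at chr15:88819520-88819538, that of Dnajc3 at chr14:118937827-118937845, that of Pdia6 at chr12:17266491-17266509, that of Syvn1 at chr19:6046532-6046550 and that of Derl3 at chr10:75893242-75893260. The ERSE-II of Herpud1 lies at chr8:94386377-94386387, before its start, and that of Dnajb11 at chr16:22857852-22857862, just after its start. The block CCACG alone, part of both elements, stood in 22 of the 27 genes, against 35.5% of all genes. The Xbp1-type element TGACGTGG, whose reverse also holds CCACG, stood in 0 of 27 (0.714% of all), and TGATGNAA, an element of the type bound by Atf4, stood in 1 of 27, Herpud1 (4.51% of all). Each was searched on both strands and by exact match only, so forms with a changed base were not counted.

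The promoters of 2 genes to which the results return follow, Hspa5 because it holds an ERSE and its RNA rose, and Wfs1 because its RNA and its start region rose and its window holds neither element. Each is the 250 bases before the RefSeq start in the direction of the gene, and capitals mark the 2 fixed blocks of the ERSE. The Hspa5 sequence is chr2:34771840-34772089, plus strand, and the Wfs1 sequence chr5:36988983-36989232, minus strand.
Hspa5: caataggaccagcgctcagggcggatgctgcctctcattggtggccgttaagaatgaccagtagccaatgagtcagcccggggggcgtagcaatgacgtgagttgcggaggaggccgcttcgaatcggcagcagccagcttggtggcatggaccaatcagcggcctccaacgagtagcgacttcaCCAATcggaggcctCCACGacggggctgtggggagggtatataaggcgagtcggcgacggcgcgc
Wfs1: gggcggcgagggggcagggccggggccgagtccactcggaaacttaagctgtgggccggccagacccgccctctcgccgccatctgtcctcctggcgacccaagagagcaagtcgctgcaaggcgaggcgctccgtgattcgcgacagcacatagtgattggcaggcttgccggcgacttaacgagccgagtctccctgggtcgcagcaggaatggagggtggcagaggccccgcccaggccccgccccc

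The RNA libraries held 5625004 to 12696426 counts in genes and the H3K27ac libraries 11840994 to 14156846 fragments. Along the main axis of variation of the RNA (81.1% of the variance), serum library 3, also the smallest, was the serum library closest to those with FGF-2. Along the next axis (8.09%) replicate 3 of both groups stood apart from the other libraries. Of 11 adrenocortical markers, Star and Nr5a1 were expressed, Nr0b1 was listed at 0, and Mc2r did not exceed 0.213 CPM (read counts scaled to a common library size). The summed adrenocortical level was 849 to 1098 CPM with serum alone and 2354 to 3835 CPM with FGF-2, with Star the gene that differed most. Star was the only one of the 7 tested markers that rose, and 3 fell (Cyp11a1, Cyp11b1 and Fdxr, with log2 fold changes of −0.76, −1.40 and −1.02). Without Star the other 10 summed to 731 to 817 CPM with serum alone and 564 to 674 CPM with FGF-2. Summed markers of fibroblasts and capsule, with Col1a1 the leading gene and Col1a2 and Dcn at 0, lay at 3033 to 3817 CPM and 2222 to 3088 CPM in the same order. Markers of medulla summed to 5.35 to 7.02 and 1.5 to 2.72 CPM, with Th and Dbh at 0, and those of endothelium and blood to 8.60 to 14.6 and 9.27 to 11.8 CPM. The part of these differences in the results below was not tested. In the RefSeq annotation Hspa5, Atf6, Pdia3, Pdia6, Syvn1 and Derl2 each overlap another protein-coding gene (Rabepk, Gm29733, Catsper2, Atp6v1c2, Mrpl49 and Mis12), and whether the counting used strand is not given in the sources used here. Reads of such pairs may not be separated.

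Of the 31 genes, 29 had enough counts to be tested, 7 rose with FGF-2 and 0 fell at a false discovery rate of 0.05 (edgeR's quasi-likelihood test with Benjamini-Hochberg adjustment over 10374 genes). The 7 were Hspa5, Dnajb9, Derl1, Ern1, Atf6, Xbp1 and Wfs1. That is 24.1% of those tested, close to the 22.1% of all tested genes that rose, while 24.2% of all tested genes fell. In the group of sensors, Xbp1 and Wfs1, 4 of 5 genes rose, against 3 of the 24 tested genes in the other 4 groups. Of its sensors Ern1 and Atf6 rose and Eif2ak3 did not. The role groups were drawn up with earlier results of these data known, and this contrast was not tested. The median log2 fold change (serum with FGF-2 over serum alone) was 0.20 for the 29 genes and −0.023 for all tested genes. Only Dnajb9 and Wfs1 among them rose by at least 1 on the log2 scale, as did 6.82% of all tested genes. In 11 of the 29 all FGF-2 libraries lay above all serum libraries, and in 1 (Dnajc10) below, where 28.1% and 29.4% of all tested genes did so. The 22 genes that did not pass had log2 fold changes of −0.25 to 0.42 with standard errors (SE) of 0.10 to 0.21, and 14 of them were positive. Of these 22, 1 (Manf) had an unadjusted p under 0.05 and none of the negative ones did, and DESeq2 and limma-voom also called 0 lower. In bulk samples a change in RNA per cell cannot be told apart from a change in the mix of cells.

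**Figure D1:**
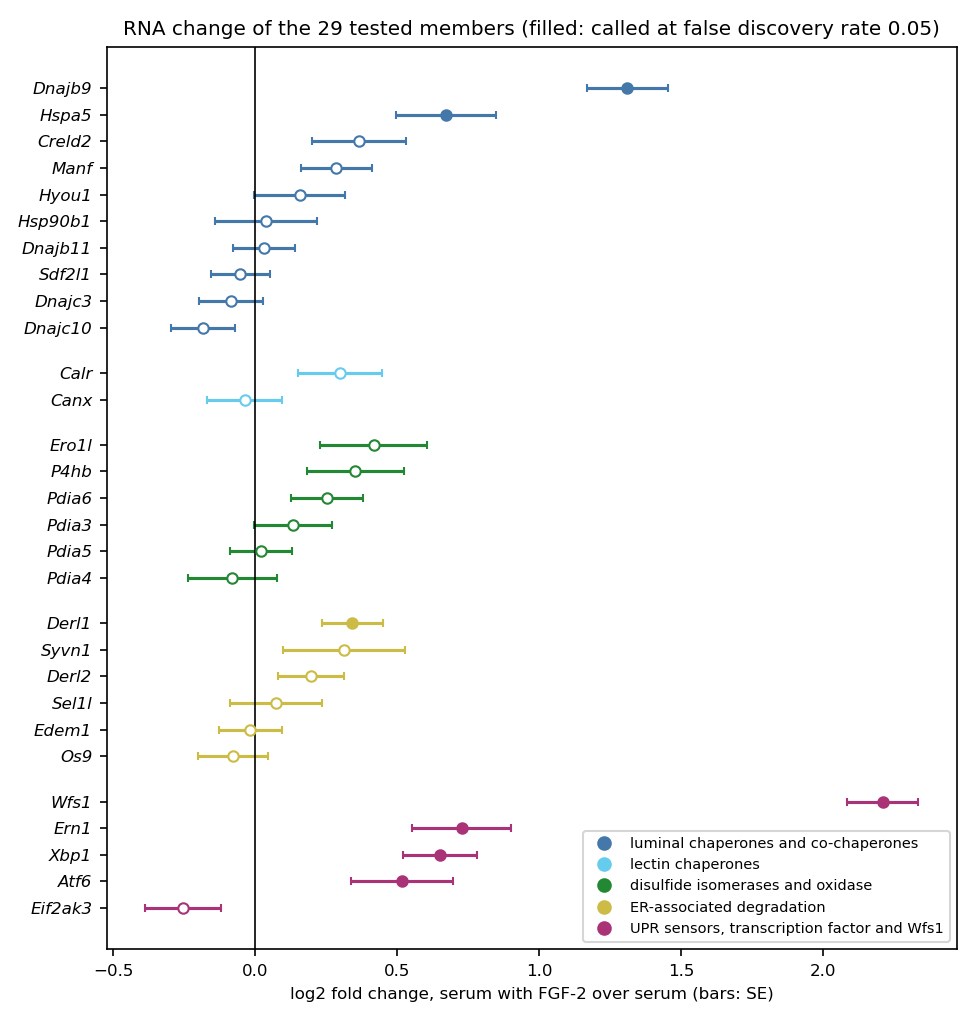
RNA log2 fold change (x axis, serum with FGF-2 over serum alone, bars are the SE) of the 29 tested genes (y axis), coloured by role, with filled points for the 7 that passed the false discovery rate of 0.05. Wfs1 at 2.21 and Dnajb9 at 1.31 lie to the right of every other gene, and the disulfide isomerases and lectin chaperones lie between −0.080 and 0.42.

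Among the luminal chaperones, 2 of 10 rose. Hspa5, which encodes BiP, the main Hsp70 chaperone of the lumen and the protein that holds the sensors inactive, measured 3025, 3659 and 4317 CPM with serum alone and 6570.0, 5288 and 5677 CPM with FGF-2. Every FGF-2 library lay above every serum library, and serum library 3 was the highest of its group. The means were 3667 ± 646 CPM against 5845 ± 657 CPM (SD, n = 3), a log2 fold change of 0.67 ± 0.18 (SE) with an adjusted p of 0.011 by edgeR. Dnajb9, a J-domain partner of BiP that also takes part in ERAD and in the control of Ern1, measured 26.8, 37.6 and 37.2 CPM with serum alone and 82.8, 79.5 and 89.1 CPM with FGF-2. Its groups were far apart, at 33.8 ± 6.13 CPM against 83.8 ± 4.86 CPM (SD, n = 3), a 2.48-fold difference (log2 1.31 ± 0.14, edgeR adjusted p = 0.00010).

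The other 8 luminal chaperones did not pass. Hsp90b1, the Hsp90 of the lumen and the gene with 2 exact ERSE matches, measured 1480.4, 1604 and 2259 CPM with serum alone and 1907, 1637 and 1942 CPM with FGF-2, with a log2 fold change of 0.038 ± 0.18. Its highest value was in serum library 3, and the groups overlapped. Hyou1, which recharges BiP with nucleotide, had a log2 fold change of 0.16 ± 0.16. The J-domain partners of BiP stayed within a narrow range, with log2 fold changes of 0.032 ± 0.11 for Dnajb11, −0.084 ± 0.11 for Dnajc3 and −0.18 ± 0.11 for Dnajc10, which is also a disulfide reductase. Dnajc10 measured 261, 266 and 310.2 CPM with serum alone and 229, 253 and 254 CPM with FGF-2, so that all FGF-2 libraries lay below all serum libraries, but the adjusted p was 0.204 by edgeR. Sdf2l1, which acts with BiP and Dnajb11, stood at −0.052 ± 0.10. Manf, a secreted and luminal survival factor, measured 270.1, 302 and 306 CPM with serum alone and 407, 353 and 312 CPM with FGF-2, without overlap, for a log2 fold change of 0.29 ± 0.13 and an edgeR adjusted p of 0.086. Creld2, a luminal factor known as an ER stress gene, measured 130.0, 165 and 146 CPM with serum alone and 234, 186 and 148 CPM with FGF-2, with a log2 fold change of 0.37 ± 0.17 and an adjusted p of 0.095. In Hyou1, Manf and Creld2, FGF-2 library 3 was the lowest of its group.

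Neither lectin chaperone passed. Calr, the soluble lectin calreticulin, measured 1662, 1931 and 2212 CPM with serum alone and 2487, 2311 and 2344 CPM with FGF-2, and its groups did not overlap. Its log2 fold change was 0.30 ± 0.15 with an adjusted p of 0.124 by edgeR, and DESeq2 gave 0.32 with an adjusted p of 0.048, below the threshold. Canx, the membrane lectin calnexin, measured 1616, 1618 and 1889 CPM with serum alone and 1656, 1711 and 1629 CPM with FGF-2, a log2 fold change of −0.036 ± 0.13.

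None of the 6 disulfide enzymes passed with edgeR, which gave adjusted p values of 0.096 to 0.889. Ero1l, the oxidase that recharges protein disulfide isomerase, measured 119, 81.8 and 117 CPM with serum alone and 125, 177 and 121 CPM with FGF-2, and its log2 fold change of 0.42 ± 0.19 was the highest of the genes that did not pass. P4hb, the classical protein disulfide isomerase, measured 3425, 3071 and 2953 CPM with serum alone and 3930.4, 4803 and 3339 CPM with FGF-2, with FGF-2 library 3 inside the serum range. Its log2 fold change was 0.35 ± 0.17 (edgeR adjusted p = 0.112, DESeq2 adjusted p = 0.040). Pdia6, an isomerase that acts on clients of BiP and holds an ERSE, measured 928, 990.3 and 1038 CPM with serum alone and 1238, 1223 and 1062 CPM with FGF-2, without overlap, for a log2 fold change of 0.25 ± 0.13. Pdia3, the isomerase that works with the lectins, gave 0.14 ± 0.14, Pdia4 −0.080 ± 0.16 and Pdia5 0.021 ± 0.11. Pdia4 measured 421, 494 and 469 CPM with serum alone and 529, 430.4 and 348 CPM with FGF-2, so its FGF-2 libraries held both the highest and the lowest value.

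In the ERAD group 1 of 6 tested genes rose. Derl1, a membrane protein of the retrotranslocation channel, measured 186, 191 and 214 CPM with serum alone and 234, 249.9 and 265 CPM with FGF-2. The groups did not overlap, and the means were 197 ± 14.7 CPM against 249.8 ± 15.6 CPM (SD, n = 3), a log2 fold change of 0.34 ± 0.11 with an edgeR adjusted p of 0.025. Its relative Derl2 measured 78.7, 69.8 and 90.6 CPM with serum alone and 88.8, 92.0 and 93.1 CPM with FGF-2, a log2 fold change of 0.20 ± 0.12 that did not pass. Syvn1, the ubiquitin ligase of the main ERAD complex, measured 228, 318 and 275 CPM with serum alone and 435, 343 and 239 CPM with FGF-2. FGF-2 libraries 1 and 2 were the highest and FGF-2 library 3 lay within the serum range, and its log2 fold change was 0.31 ± 0.21 (edgeR adjusted p = 0.259). Sel1l, the partner that stabilises the ligase, gave 0.073 ± 0.16. Edem1 and Os9, which pick out misfolded glycoproteins by their trimmed sugars, gave −0.017 ± 0.11 and −0.078 ± 0.12.

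Herpud1 and Derl3 were listed at 0 counts in all 6 RNA libraries and were not tested. A count of 0 allows up to 0.236 to 0.533 CPM per library (3 counts in that library, which covers counting error only). These limits use each library's total counts in genes, without the TMM scaling applied to the other CPM values. Of the 162 other secretory pathway genes in the count files that are described below, 11 were also listed at 0 in every library. They include Rpn2, Sec63 and Sar1a, which take part in glycosylation, import and vesicle budding in all cells, so a 0 in these files is not read as absence of the RNA. Herpud1, which brings the ERAD ligase and its clients together, had an H3K27ac region over its start with signals of 463 and 359 with serum alone and 444 and 406 with FGF-2. Of the 11 other genes at 0, 6 had an H3K27ac region within 1 kb of a start. Derl3 had no region.

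**Figure D2:**
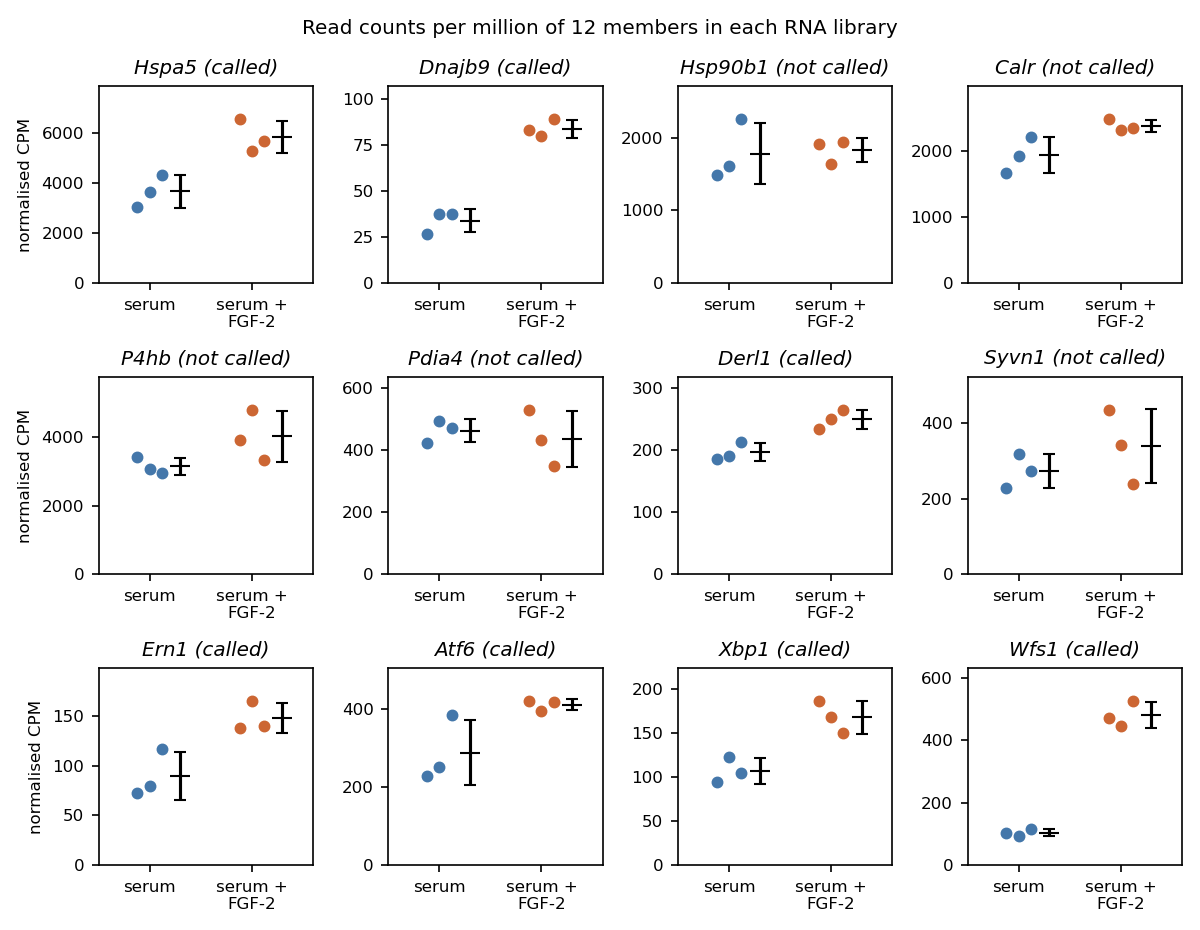
Normalised CPM (y axis, from 0) of 12 genes in each RNA library (points, 3 per group), with the mean and SD of each group in black. In the 7 genes called, the FGF-2 points all lie above the serum points, while in Hsp90b1, P4hb, Pdia4 and Syvn1 the groups overlap.

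In the group of sensors, Xbp1 and Wfs1, 4 of 5 genes rose. Wfs1, an ER membrane glycoprotein whose loss causes Wolfram syndrome, measured 103, 94.0 and 115 CPM with serum alone and 473, 446 and 527 CPM with FGF-2. The means were 104 ± 10.7 CPM against 482 ± 41.3 CPM (SD, n = 3), a 4.63-fold difference (log2 2.21 ± 0.12, edgeR adjusted p = 5.8e-06), and 2.34% of all tested genes had a larger log2 fold change. Ern1, the sensor that splices the Xbp1 mRNA, measured 72.7, 79.3 and 117 CPM with serum alone and 138, 165 and 139.6 CPM with FGF-2. Serum library 3 was the highest of its group and still below every FGF-2 library. The means were 89.6 ± 23.8 CPM against 148 ± 15.2 CPM (SD, n = 3), a log2 fold change of 0.73 ± 0.17 with an edgeR adjusted p of 0.0078. Xbp1, the target of that splicing, measured 94.0, 123 and 104 CPM with serum alone and 187, 168 and 149.6 CPM with FGF-2, again without overlap. Its log2 fold change was 0.65 ± 0.13 with an edgeR adjusted p of 0.0028, from means of 107 ± 14.6 CPM against 168 ± 18.5 CPM (SD, n = 3).

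Atf6, the sensor cleaved in the Golgi, measured 229, 250.3 and 383 CPM with serum alone and 420.0, 394 and 418 CPM with FGF-2. The FGF-2 libraries lay close together, and serum library 3 lay between them and the other 2 serum libraries. The log2 fold change was 0.52 ± 0.18 with an edgeR adjusted p of 0.040, from means of 287 ± 83.2 CPM against 411 ± 14.8 CPM (SD, n = 3). Eif2ak3, the kinase that phosphorylates eIF2alpha, was the only sensor that did not rise. It measured 45.7, 53.2 and 48.3 CPM with serum alone and 48.5, 38.4 and 36.2 CPM with FGF-2, with overlapping groups, a log2 fold change of −0.25 ± 0.13 and an edgeR adjusted p of 0.143. The difference between its fold change and that of the other sensors was not tested.

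Dnajb9, Ern1 and Wfs1 passed under every other test, scaling, filter, block and left-out library that was run at a false discovery rate of 0.05, with log2 fold changes of 0.97 to 1.39, 0.40 to 0.96 and 1.87 to 2.29. The largest adjusted p over these alternatives was 0.00050 for Dnajb9, 0.049 for Ern1, close to the threshold, and 8.4e-05 for Wfs1. Xbp1 lost its call only when libraries were scaled by their totals (adjusted p = 0.080). Hspa5 lost it with that scaling (adjusted p = 0.101), without serum library 1 (adjusted p = 0.061) and without serum library 2 (adjusted p = 0.060). Derl1 lost it with upper-quartile scaling (adjusted p = 0.142), with library totals (log2 fold change 0.0032, adjusted p = 0.98), and without serum library 1, serum library 2 or FGF-2 library 2 (adjusted p = 0.099, 0.105 and 0.057). Atf6 lost it with both of those scalings (adjusted p = 0.113 and 0.337) and without any 1 library other than serum library 3 (adjusted p = 0.069 to 0.147), and without serum library 3 its log2 fold change was 0.78 (adjusted p = 0.00083).

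The scaling between libraries sets how many of the 29 genes are called in each direction. With upper-quartile scaling 5 rose and 2 (Dnajc10 and Eif2ak3) fell, and with library totals 3 rose and 9 fell. These scalings moved the median of all tested genes from −0.023 to −0.16 and −0.36, and the share of all calls that were higher from 47.7% to 32.7% and 18.1%. Relative to the median of all tested genes, the median of the set was 0.22, 0.22 and 0.23 under the 3 scalings. Scaling moves all genes nearly together, so this difference could hardly change with it. With 1 library left out it was 0.17 (without FGF-2 library 1) to 0.33 (without FGF-2 library 3). The number that rose was 4 without serum library 1, 4 without serum library 2, 9 without serum library 3, 5 without FGF-2 library 2 and 10 without FGF-2 library 3. The authors' deposited DESeq2 table has 9 of the genes higher and 0 lower at 0.05, the 7 named above with Calr and P4hb.

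The ERSE stood both in genes that rose and in genes that did not. Of the 5 risers with a promoter sequence, 1 (Hspa5) holds an ERSE, and of the 20 tested genes that did not pass, 7 do. Hsp90b1, with 2 sites, had a log2 fold change of 0.038, Dnajc3 −0.084, Canx −0.036, Pdia6 0.25, Calr 0.30, Syvn1 0.31 and Creld2 0.37. The windows of Dnajb9, Ern1, Xbp1 and Wfs1 hold no exact match. These shares were not tested, and a match shows only the letters, not binding.

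Other genes of the secretory pathway were counted in 5 lists, to show how the rest of the machinery moved. In the list of other folding factors, 5 of 31 tested genes rose (16.1%, where 22.1% of all tested genes did) and 6 fell (19.4%, where 24.2% of all did). Without serum library 2, 3 rose and 3 fell, without serum library 3, 8 rose, and without FGF-2 library 1, 3 fell. The highest riser by the naming rule was Dnajc1, a J-domain protein of the ER membrane, at 82.4, 82.6 and 127 CPM with serum alone and 164, 163 and 179 CPM with FGF-2 (log2 0.80 ± 0.17, edgeR adjusted p = 0.0038). Uggt2, of the family of folding sensors that re-tag glycoproteins for the lectins, rose by 0.78 on the log2 scale. Dnajb14 and Cnpy3, a J-domain protein and a chaperone of Toll-like receptors, had log2 fold changes of −0.67 ± 0.18 and −0.60 ± 0.12 and fell. The call of Dnajb14 was lost without serum library 2 (adjusted p = 0.060) and without FGF-2 library 1 (adjusted p = 0.065). Among other ERAD factors 13 of 31 rose and 6 fell, or 41.9% and 19.4%, against the same 22.1% and 24.2% of all tested genes. Selk, a selenoprotein of the ER membrane, measured 108, 109.6 and 103 CPM with serum alone and 198, 212 and 228 CPM with FGF-2, and its log2 fold change was 0.99 ± 0.10 (edgeR adjusted p = 7.7e-05). Svip, an inhibitor of ERAD that binds the ATPase Vcp, rose by 1.34, at lower counts (4.72 against 12.1 CPM). Ngly1, the glycanase that strips sugars from ERAD clients, had a log2 fold change of −1.14 ± 0.24 and Edem2, a relative of Edem1, of −0.51 ± 0.10, and both fell.

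In the list of other stress signalling genes 8 of 25 rose and 5 fell (32% and 20%, against 22.1% and 24.2% of all tested genes). The 8 risers became 2 without serum library 1, 2 without serum library 2, 5 without FGF-2 library 1, 4 when scaled by the upper quartile and 1 by library totals. Creb3l2, a membrane-bound transcription factor cleaved in the same way as Atf6, measured 105, 119 and 149 CPM with serum alone and 379, 331 and 412 CPM with FGF-2, a 3.0-fold difference (log2 1.59 ± 0.15, edgeR adjusted p = 4.6e-05). Cebpg, a dimer partner of Atf4, rose by 0.59, a call lost with library totals (adjusted p = 0.177) and without serum library 1 or 2 (adjusted p = 0.057 and 0.061). Map3k5, a kinase that couples ER stress to cell death, measured 30.1, 27.4 and 28.9 CPM with serum alone and 7.70, 11.7 and 10.5 CPM with FGF-2 and fell, with a log2 fold change of −1.53 ± 0.17, as did Crebrf, a regulator of the family of Creb3 factors, at −1.26 ± 0.31. The next 3 genes, downstream of eIF2alpha phosphorylation, were chosen after seeing their values. Which kinase acts on them in these cells was not measured. Atf4, the factor whose translation eIF2alpha phosphorylation favours, measured 185, 188 and 242 CPM with serum alone and 273, 275 and 351 CPM with FGF-2 (log2 0.55 ± 0.15, edgeR adjusted p = 0.012). Its targets Ddit3 and Ppp1r15a, a death-linked factor and a phosphatase subunit that reverses the phosphorylation, rose by 0.51 and 0.50 (adjusted p = 0.039 and 0.032). Of 14 alternatives Atf4 lost its call in 3, library totals (adjusted p = 0.191) and leaving out serum library 1 or 2 (adjusted p = 0.054 and 0.056). Ddit3 and Ppp1r15a each lost it in 6, which were scaling by the upper quartile or by library totals and the removal of any 1 library except replicate 3 of serum and replicate 2 of FGF-2, with adjusted p up to 0.436 and 0.395. Chac1 and Trib3, also downstream of this phosphorylation, did not pass (edgeR adjusted p = 0.088 and 0.704).

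In the list of import and N-glycosylation 7 of 29 rose (24.1%, against 22.1% of all tested genes) and 0 fell by edgeR (1 at an unadjusted p under 0.05, and 0 fell with DESeq2 and with limma-voom), and 4 rose without serum library 1 and 3 without serum library 2. Srprb, a subunit of the receptor that docks ribosomes at the ER, measured 211, 237 and 280.2 CPM with serum alone and 447, 412 and 391 CPM with FGF-2 (log2 0.78 ± 0.13, edgeR adjusted p = 0.0010), and Sec62, a translocon partner, rose by 0.63, a call lost with library totals (adjusted p = 0.090). In the list of vesicle transport from the ER to the Golgi 9 of 22 rose and 1 fell, or 40.9% and 4.55%, against 22.1% and 24.2% of all tested genes, and 4 rose without serum library 1 and 5 without serum library 2. Kdelr2, a receptor that returns escaped chaperones to the ER, measured 504, 449 and 649 CPM with serum alone and 1028, 1206 and 1119 CPM with FGF-2, a 2.09-fold difference (log2 1.07 ± 0.16, edgeR adjusted p = 0.00055). Mcfd2, a cargo receptor subunit, rose by 1.27, and Sec16b, a scaffold of exit sites, fell, with a log2 fold change of −1.0 ± 0.15. The lists' median log2 fold changes were −0.12 for folding, 0.18 for ERAD, 0.15 for signalling, 0.24 for import and 0.22 for transport. With library totals the import list had 1 gene higher and 2 lower and the transport list 3 and 6, so the direction of these lists also depends on the scaling.

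**Figure D3:**
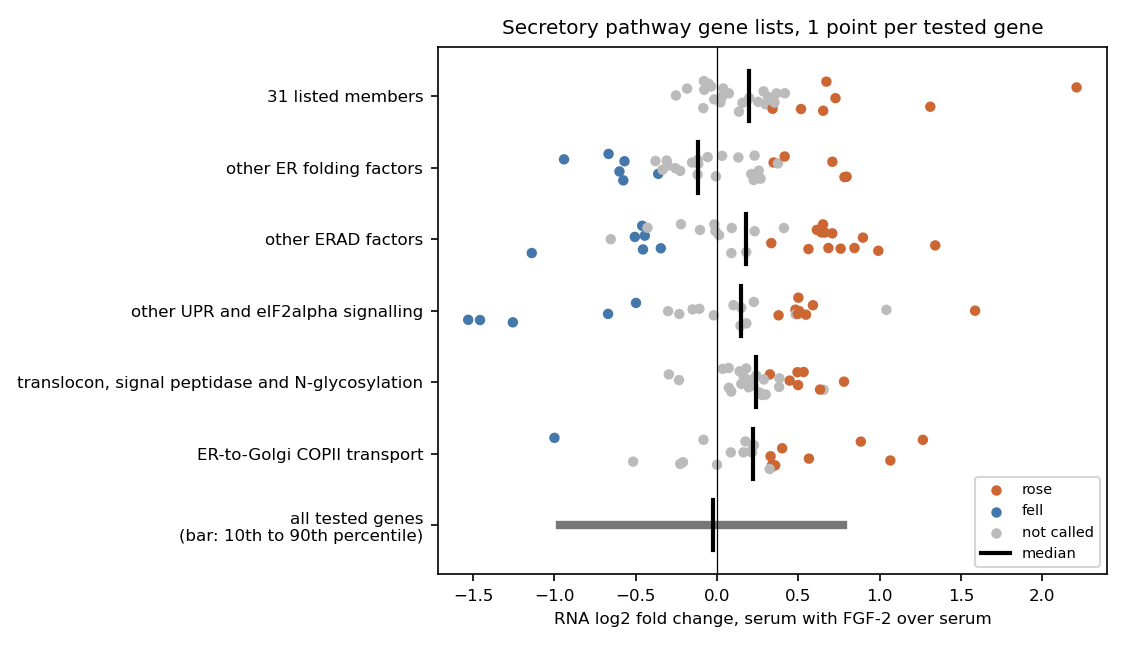
RNA log2 fold change (x axis) of each tested gene (points) in the set of 31 and in 5 other lists (y axis), coloured by call, with medians as black bars and the 10th to 90th percentile of all 10374 tested genes as a grey bar. The set and the import list hold no gene called lower, and the folding and ERAD lists hold genes called in both directions.

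In the authors' table of 40772 H3K27ac regions, each tied by them to the gene with the nearest start, 79 regions belonged to 30 of the 31 genes, with up to 10 per gene (Atf6). At the authors' false discovery rate of 0.05, 1 of the 79 was higher with FGF-2 (1.27%) and 2 were lower (2.53%), against 8.33% and 1.64% of all regions. The counts are too few to read against that background. All 30 genes had a region within 1 kb of a start, and a peak called by MACS2 over it in each of the 4 libraries. The regions come from these same 4 libraries, and the share of all regions within 1 kb with such peaks was not counted. The peaks are therefore a description, not a trait of these genes. In the start regions 1 of 30 was higher and 0 lower, where 2.02% and 0.681% of 12484 regions within 1 kb of a start were. Also 0 were lower at the authors' unadjusted p of 0.05, or at an adjusted p of 0.05 in limma and in edgeR. Besides Wfs1, those of Creld2, Pdia6 and Sdf2l1 were higher at the authors' unadjusted p (0.0375, 0.0068 and 0.019). The share of all regions passing at that p was not counted. In edgeR on reads recovered from the signals, Pdia6 also passed (adjusted p = 0.023). The median log2 fold change of the 30 start regions was 0.18 (range −0.22 to 1.41), against 0.040 for all regions within 1 kb. Both FGF-2 libraries lay above both serum libraries in 13 of the 30, and below in 1, Derl2, against 21.1% and 12.9% of all regions within 1 kb. Serum library 2 was the lower serum library in 29 of the 30, and the share of all regions where it was lower was not counted. It had 28.0% of its fragments in regions, against 34.1% to 35.3% in the others. Its input held 110273836 fragments, against 12241177 to 15672630 in the other inputs. The part of these differences in the start region values, the peaks and their fold enrichments was not tested. Signals given here are the authors' normalised read signals, with 2 libraries per group.

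The region called higher was the one just inside Wfs1 (chr5:36988444-36988955, mm10), 27 bases from its start, with signals of 29.5 and 23.4 with serum alone and 60.9 and 80 with FGF-2. Both FGF-2 libraries were above both serum libraries, and the authors' table gives a log2 fold change of 1.41 and a false discovery rate of 0.010. With 1 library left out, limma gave 1.18 to 1.57, and the call was lost without FGF-2 library 2. Such a fit leaves 1 library in a group. The authors' fold enrichment of the peak over input was 10.8 and 8.41 with serum alone and 19.2 and 20.1 with FGF-2. A second region on the upstream side of the start (chr5:36989223-36989586), which reaches into the printed promoter, had signals of 23.0 and 15.0 with serum alone and 28.5 and 24 with FGF-2 and was not called (log2 fold change 0.46).

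The 6 other genes whose RNA rose had start regions that were not called, with log2 fold changes of −0.10 to 0.33. The start region of Hspa5 (chr2:34772075-34773861) had signals of 232 and 174 with serum alone and 247 and 194 with FGF-2, a log2 fold change of 0.12, and its printed ERSE lies just upstream, outside it. That of Derl1 had 135 and 95.3 with serum alone and 114 and 132 with FGF-2 (log2 0.090). That of Xbp1 had 463 and 358 with serum alone and 505 and 524 with FGF-2 (log2 0.33), that of Dnajb9 228 and 169.7 with serum alone and 203 and 169 with FGF-2 (log2 −0.10), that of Ern1 670.4 and 567 with serum alone and 633 and 620 with FGF-2 (log2 0.020), and that of Atf6 333 and 248 with serum alone and 270.1 and 275 with FGF-2 (log2 −0.090). The groups overlapped in 5 of these 6 start regions, and Xbp1 was the exception. Hspa5 also had a region 284 bases upstream (chr2:34770400-34771806), with signals of 269 and 197 with serum alone and 294 and 295 with FGF-2. Its groups did not overlap, and it was not called (log2 0.34). Derl1 also had a region 280 bases upstream, with 79.2 and 61.8 with serum alone and 72.3 and 63 with FGF-2. That region was not called, and its groups overlapped (log2 −0.060). The start regions with the next highest log2 fold changes belonged to genes whose RNA did not pass, Creld2 (44.2 and 30.9 with serum alone and 66.6 and 65 with FGF-2, log2 0.81) and Pdia6 (134 and 104 with serum alone and 192 and 188 with FGF-2, log2 0.67). Across the 29 genes the correlation between the RNA and start region log2 fold changes was 0.40 (Pearson) and −0.065 (Spearman), and −0.22 (Pearson) without Wfs1. These are descriptions, since all points of an axis share the same libraries.

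**Figure D4:**
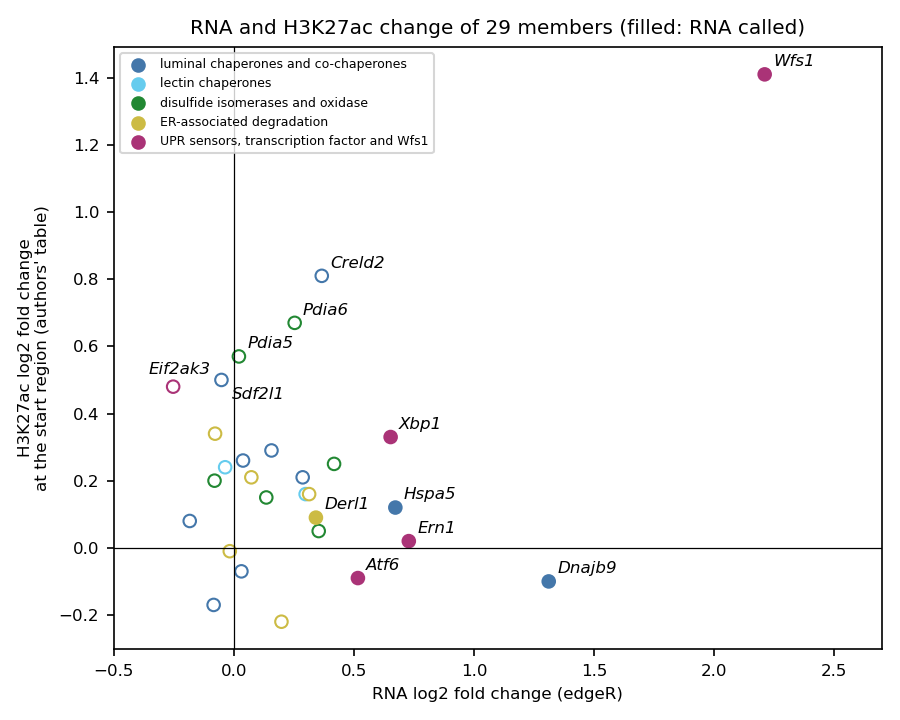
Log2 fold change of H3K27ac at the start region (y axis, authors' table, 2 libraries per group) against that of RNA (x axis, edgeR, 3 libraries per group) for 29 genes, coloured by role, with filled points for genes whose RNA was called. Wfs1 lies alone at the upper right, and the 6 other filled points lie between −0.10 and 0.33 on the y axis.

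The regions called lower lay away from start sites. A region in the last intron of Atf6 (chr1:170741078-170742336) had signals of 69.1 and 75.2 with serum alone and 29.5 and 31 with FGF-2, a log2 fold change of −1.25 and an authors' false discovery rate of 0.019, while the RNA of Atf6 rose. An intergenic region 6239 bases upstream of Os9 (chr10:127127399-127129518) had signals of 150.1 and 152 with serum alone and 80.8 and 69 with FGF-2, a log2 fold change of −1.01 and a false discovery rate of 0.0051, and the RNA of Os9 had a log2 fold change of −0.078. With 1 library left out, limma gave −1.29 to −1.17 for the Atf6 region and −1.12 to −0.89 for the Os9 region. Both calls were lost when FGF-2 library 1 or FGF-2 library 2 was left out, which leaves 1 library in that group. Nearest to the threshold without passing were a region in the first intron of Ern1 (chr11:106474842-106475150), with signals of 2.76 and 3.34 with serum alone and 19.97 and 16 with FGF-2 and a log2 fold change of 2.56 (false discovery rate 0.0504), and the Pdia6 start region (0.062). The Ern1 region passed in limma on log2(signal + 1) (adjusted p = 0.0047) and in edgeR on reads recovered from the signals (adjusted p = 0.021), at low signal in the serum libraries. The Pdia6 start region passed in edgeR (adjusted p = 0.023) but not in limma (adjusted p = 0.054). A pair of lower regions also passed in both tests without passing in the authors' table. One, in exon 13 of Ern1 (chr11:106409558-106411293), had signals of 129 and 111 with serum alone and 76.1 and 62 with FGF-2 (log2 −0.80, false discovery rate 0.068, adjusted p = 0.036 in limma and 0.0070 in edgeR). The other, in intron 12 of Atf6 (chr1:170790753-170791075), had signals of 31.3 and 19.2 with serum alone and 9.51 and 7 with FGF-2 (log2 −1.61, false discovery rate 0.133, adjusted p = 0.027 in limma and 0.026 in edgeR). Which gene a distal region acts on was not measured.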

How the data were processed

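Y1 cells were profiled in 6 RNA and 4 H3K27ac libraries, and the 4 inputs entered only through the peak lists. The authors deposited raw read counts per gene (HTSeq 0.10.0 after STAR 2.5.2a) and a DESeq2 table of log2 fold changes and p-values, per the submitters' processing notes and the file headers. Peaks were called per library with MACS2 (version 2.2.6 in the submitters' processing notes) against its input, per the file headers, which give the fold enrichment (a ratio) and −log10 q, at a q-value of 0.01. The authors' deposited region table (mm10; DiffBind and ChIPseeker, per the submitters' processing notes) gives a normalised signal per library, log2 folds and false discovery rates, used here as deposited.

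RNA was tested with edgeR 4.0.16 in R 4.3.3 (filterByExpr, TMM, robust quasi-likelihood, Benjamini-Hochberg adjustment at 0.05) over 10374 genes. SEs were derived from each log2 fold change and its F statistic. DESeq2 1.42.0, limma 3.58.1 and other scalings and filters, and leaving out each library, were alternatives. Scripts were tested on simulated data. Motif letters were searched in RefSeq promoter windows, and figures were drawn with matplotlib 3.10.9. Protein sequences were not used here. The genes and lists were chosen with earlier results of these data known. The text names all 31 genes, up to 2 called genes each way per other list (largest log2 fold change at a mean of at least 5 CPM), and every called region.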

Additional observations from a re-analysis of the deposited data

How the results depend on the processing

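The spread between libraries exceeded counting noise (chi-square divided by its degrees of freedom, 9.06 to 24.0 for pairs of RNA libraries of a group), and genes that did not pass had SEs of 0.10 to 0.21. On simulated H3K27ac data of 40772 regions with 2 libraries per group, limma recovered 28% of 2-fold and 88% of 4-fold changes, and edgeR 47% and 91%. The changes were placed only in regions above a minimum mean of recovered reads, so these shares do not cover regions of low signal. The authors' test was not simulated, so these shares do not give the recovery of its calls. On simulated RNA data edgeR recovered 78% of 2-fold and 98% of 4-fold changes. The alternatives covered the tool, scaling, filter, threshold, replicate block, left-out libraries and, for H3K27ac, the test, pseudocount, peak threshold and overlap. The edgeR test on reads recovered from the H3K27ac signals (over 99.9% of values whole within 0.02 reads, 4315 regions higher and 2726 lower) and the crossed block were added after seeing the data.

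Of the 29 genes, 7 rose and 0 fell with edgeR, 4 rose at a false discovery rate of 0.01, and 2 fell with upper-quartile scaling. With library totals 3 rose and 9 fell. Leaving out 1 library gave 4 to 10 that rose and 0 to 1 that fell. In the other folding list (5 rose, 6 fell), upper-quartile scaling gave 3 and 10, library totals 3 and 19, and left-out libraries 3 to 8 and 3 to 6. In the other ERAD list (13 and 6), library totals gave 7 and 11, and left-out libraries 12 to 14 and 4 to 6. In the signalling list (8 and 5), upper-quartile scaling gave 4 higher, library totals 1 and 9, and left-out libraries 2 to 10 and 4 to 5. In the import list (7 and 0), upper-quartile scaling gave 2 lower, library totals 1 and 2, and left-out libraries 3 to 10 and 0 to 1. In the transport list (9 and 1), upper-quartile scaling gave 4 and 3, library totals 3 and 6, limma-voom 2 lower, the filter of at least 10 counts 2 lower, and left-out libraries 4 to 11 and 1 to 2. Over all genes (2295 and 2512), library totals gave 1035 and 4675, and left-out libraries 1624 to 2417 and 1892 to 2540. The 2 scalings lower all fold changes together, and the cause of the other changes was not tested.

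Of the genes that did not pass, these changed sign. With library totals the log2 fold change was −0.29 for Hsp90b1, −0.18 for Hyou1, −0.30 for Dnajb11, −0.048 for Manf, −0.035 for Calr, −0.20 for Pdia3, −0.32 for Pdia5, −0.083 for Pdia6, −0.26 for Sel1l, −0.019 for Syvn1 and −0.14 for Derl2. With upper-quartile scaling it was −0.10 for Hsp90b1, −0.11 for Dnajb11, −0.0057 for Pdia3, −0.12 for Pdia5 and −0.067 for Sel1l. Edem1 was at 0.0022 with DESeq2 and 0.0021 with RLE scaling. Leaving out 1 library gave ranges that cross 0 for Hsp90b1 (−0.085 to 0.25), Dnajb11 (−0.022 to 0.11), Dnajc3 (−0.16 to 0.0053), Canx (−0.080 to 0.043), Pdia4 (−0.24 to 0.061), Pdia5 (−0.038 to 0.084), Edem1 (−0.073 to 0.046), Sel1l (−0.086 to 0.24) and Os9 (−0.14 to 0.0038).

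Same-numbered RNA libraries deviated together with r = −0.13, 0.054 and 0.39, and not every library correlated best with its own number, so the numbers were not taken to pair the libraries. The highest r were 0.34 for serum library 1 with FGF-2 library 2 and 0.43 for serum library 2 with FGF-2 library 1. For serum library 3 the highest was the 0.39 with FGF-2 library 3. With the replicate number as a block, 7 of the 29 genes rose and 0 fell, the same 7. A block with the pairing of the highest r was not fitted to the RNA, so the calls under that pairing are not known.

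Of the 79 H3K27ac regions (1 higher and 2 lower in the authors' table), limma on log2(signal + 1) called 3 higher and 4 lower, on log2(signal + 8) 4 and 4, with a replicate block 2 higher, and edgeR on recovered reads 3 and 6. Left-out libraries gave 1 to 9 higher and 0 to 7 lower, with the lone library of a group assumed to vary like the other group. At the authors' false discovery rate of 0.01, 1 was lower. Over all regions (3398 and 670), these gave 5216 and 1562, 5329 and 1591, 1092 lower without the lowest 25% of mean signal, 2726 lower with edgeR, and 2099 and 297 at 0.01. Left-out libraries gave 1843 to 6695 higher and 687 to 2442 lower. Same-numbered H3K27ac libraries had r = −0.22, and a crossed pairing as a block called 6 and 5 of the 79 and 6236 and 2197 of all regions.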
